A study of Homo sapiens with 6 samples.

Results

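WEE1, PKMYT1, CDC25A, CDC25B, CDC25C, CDK1, CCNB1, CCNB2, CCNA2, and CHEK1 encode the kinases, phosphatases, and cyclins that control entry into mitosis. They are 10 of 34423 gene names on the arrays, and were taken as every probe that the scanner files assign to 1 of these symbols. That gave 12 of the 50599 probes of 60 bases outside the controls, with 2 probes each for CDK1 and CCNB1 and 1 for every other gene. Of the 12, 11 were kept, being well above background on 1 array or both in every cell line, and each of these was so on all 6 arrays.

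HSC-3, KON, and Ca9-22, established cell lines of oral squamous cell carcinoma (OSCC), were transfected with a control siRNA (siCtrl) or with an siRNA against the long noncoding RNA DLEU1. The labels call the latter siDLEU1, and the study identifies it as siDLEU1-2 where it reports the results of the arrays. Cells were incubated for 72 h, and 100 ng of total RNA was labeled for 1 one-color Agilent array per line and siRNA, 6 arrays on 1 slide. Both groups received Lipofectamine RNAiMAX, no allele or other treatment separates them, and a single siRNA sequence against DLEU1 is represented. Because no line has a second array of the same siRNA, only the 3 lines replicate each other, and no single line has an error for its change. Levels are the log2 processed signal minus the 75th percentile of the same array, so a level of 0 is that percentile, and a log2 fold change is siDLEU1-2 minus siCtrl within a line. Levels are compared between arrays for 1 probe, and never between probes.

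DLEU1 itself was lower in every line, with log2 fold changes averaging -3.72 ± 0.34 (n = 3 lines, SD; adjusted p = 0.0227 from limma). All 14 epithelial marker genes examined had a kept probe (4 of 21 probes rose and 3 fell, against 3.98% and 4.52% of all kept probes), and the log2 of their summed level was 9.60 to 11.2 after siCtrl and 9.68 to 11.2 after siDLEU1-2. The probes called were those of CDH1 (mean log2 fold change 2.92), KRT18 (1.83 and 1.40), 1 of 3 of KRT8 (2.47; the others, at 2.86 and 0.10, were not called), ITGB4 (-2.73), KRT6A (-1.33), and SFN (-0.81). The median of the list was -0.63 (HSC-3), -0.28 (KON), and 0.64 (Ca9-22). Of 12 marker genes of other cell types, 4 had a kept probe (CD68, which fell, COL1A1, which rose, DES, and VWF), the log2 of the summed level was 1.85 to 2.73 and 2.28 to 2.72 in the same groups, and LUM and COL3A1 were not well above background on any array. The part of these markers in the results was not tested.

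A cell enters mitosis when CDK1, bound to a B-type cyclin, becomes active. WEE1 and PKMYT1 hold the complex inactive by phosphorylating CDK1, and the CDC25 phosphatases remove those phosphates. CHEK1, a kinase of the DNA damage and replication checkpoint, acts against CDC25 proteins and so delays mitosis. The activities of these proteins are set to a large extent by phosphorylation, localization, and destruction, none of which an array measures. Transcripts of CDK1, the cyclins, and CDC25C are known to accumulate late in the cell cycle, under promoter elements that include the cell cycle genes homology region, with the core TTTGAA, and CCAAT boxes bound by the factor NF-Y. In bulk RNA, fewer cells in that stage and less RNA per cell cannot be told apart.

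The antisense strand of siDLEU1-2 is shown because it is the agent behind every comparison with siCtrl, with its seed, positions 2 to 8 from the 5′ end, in capitals. The DNA heptamer complementary to the seed, GCACTTA, was found in 0 of the 12 probes of these genes, which says nothing of the rest of their transcripts.
siDLEU1-2 antisense: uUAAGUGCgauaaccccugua

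Promoter sequence is shown for CDK1, its cyclins, and CDC25C, whose probes had changes of similar direction within a line. Both motifs were searched on both strands of RefSeq promoter windows of GRCh38.p14 that run from 250 bases before to 50 bases after each annotated start, and neither motif contains the other. There were 17 windows for 8 of the 10 genes, several of them overlapping. WEE1 and PKMYT1 had no window in the set of promoters used, although both names are found in RefSeq. TTTGAA was found in 5 of the 17 windows, those of CDK1, CCNB2, and CDC25C, and in 15.2% of all 35116 windows. CCAAT was found in 13 of the 17, at least once for each of the 8 genes, and in 34.6% of all windows. These matches describe letters and are not evidence of binding. Each line gives 30 bases on the strand of the gene around the TTTGAA nearest upstream of a start, or around the nearest CCAAT where there was no TTTGAA, with the motif in capitals (in CCNA2 it reads on the opposite strand, as ATTGG).
CDK1, chr10:60778448-60778477, + strand, motif beginning 13 bases before the start: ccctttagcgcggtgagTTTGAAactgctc
CCNB1, chr5:69167083-69167112, + strand, 55 bases before: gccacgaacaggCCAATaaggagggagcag
CCNB2, chr15:59105105-59105134, + strand, 29 bases before: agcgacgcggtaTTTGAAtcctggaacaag
CCNA2, chr4:121823922-121823951, - strand, 56 bases before: gcgagcgctttcATTGGtccatttcaatag
CDC25C, chr5:138331817-138331846, - strand, 30 bases before: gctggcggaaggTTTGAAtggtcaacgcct

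WEE1 rose after siDLEU1-2 in all 3 lines, and it was the only gene of the group to pass the adjusted threshold. Its probe, on chromosome 11 of hg19 from 9611073 to 9611132, is assigned by the files to the transcript NM_003390. After siCtrl its level was 1.66 (HSC-3), 2.40 (KON), and 1.58 (Ca9-22). After siDLEU1-2 it was 3.04, 3.92, and 2.81 in the same lines. Every siDLEU1-2 value lay above every siCtrl value, so the groups did not overlap. How many of all kept probes are separated in this way was not counted, so this does not set WEE1 apart. WEE1 was 2.60-fold higher (HSC-3), 2.88-fold higher (KON), and 2.35-fold higher (Ca9-22). On the log2 scale this averaged 1.38 ± 0.15 (SD, n = 3 lines), with a 95% interval of 1.01 to 1.75 (adjusted p = 0.0247 from limma, Benjamini-Hochberg over the 19956 probes kept). Among all kept probes 795, or 3.98%, were called higher, and 1 of the 11 probes of these genes was. Likewise 415 kept probes, or 2.08%, were over 2-fold higher in all 3 lines, and WEE1 was the 1 such probe of the group. Its mean ranked 585th from the top of the kept probes, and 458 of the 795 called higher had a smaller one. The call rests on all 3 lines, on pairing arrays by line, and on the filter. The adjusted p was 0.0828 without HSC-3, 0.103 without KON, and 0.0598 without Ca9-22, 0.515 without the line as a block, and 0.141 without the filter on dim probes, while the log2 fold change stayed between 1.29 and 1.45 under all alternatives tried.

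**Figure D1:**
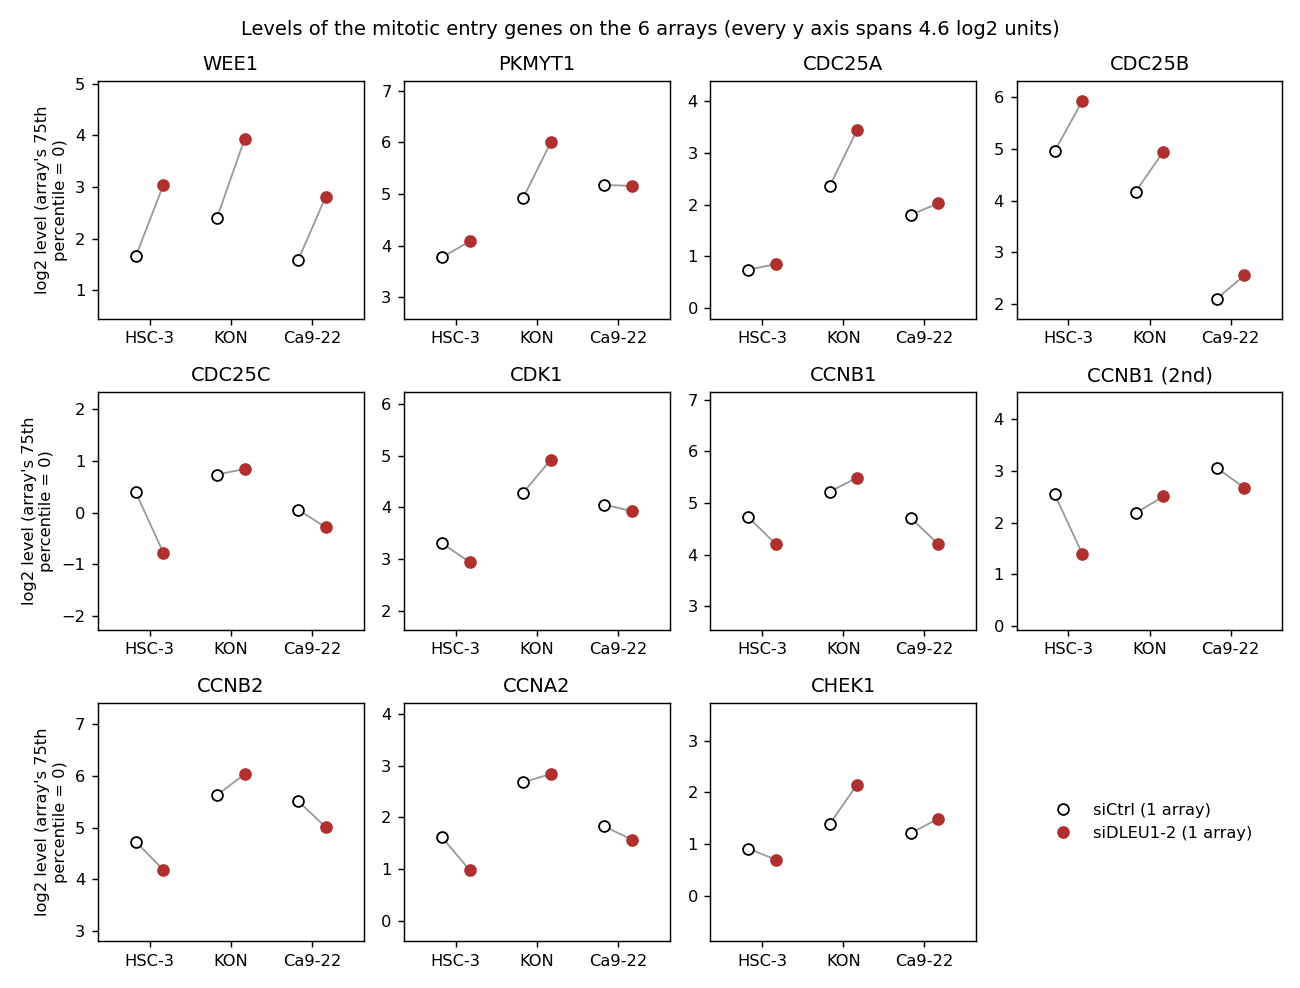
Log2 level of the 11 kept probes on the 6 arrays, 1 panel per probe, with siCtrl (open) and siDLEU1-2 (filled) joined for each cell line. Each point is 1 array, without error, and all panels span the same log2 range, so slopes can be compared but heights cannot. WEE1 slopes upward in each line by 1.23 to 1.53, while CCNB1, CCNB2, CCNA2, CDK1, and CDC25C slope upward in KON and downward in the other lines.

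PKMYT1, the membrane-bound relative of WEE1, did not pass the threshold, and its interval overlaps that of WEE1. Its probe lies on chromosome 16 from 3022820 to 3022879. After siCtrl the level was 3.77 (HSC-3), 4.92 (KON), and 5.17 (Ca9-22), and after siDLEU1-2 it was 4.08, 6.0, and 5.16. The groups overlapped, and the one large change was in KON, where the gene was 2.10-fold higher, against 1.24-fold in HSC-3 and a log2 fold change of -0.017 in Ca9-22. The mean was 0.45 ± 0.56 (SD, n = 3), and it did not pass the test (95% interval -0.20 to 1.11, adjusted p = 0.297).

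None of the 3 CDC25 phosphatases passed the threshold. CDC25B, which is thought to act early in the activation of CDK1 at the centrosome, was higher in every line, and the 95% interval of its mean lay above 0. Its probe, on chromosome 20 from 3786178 to 3786237, had levels of 4.96 (HSC-3), 4.18 (KON), and 2.11 (Ca9-22) after siCtrl. After siDLEU1-2 the levels were 5.93, 4.95, and 2.56. The lines stood further apart than the siRNAs, so the groups overlapped although each pair differed in the same direction. The differences correspond to 1.96-fold, 1.71-fold, and 1.37-fold, which average 0.73 ± 0.26 on the log2 scale (SD, n = 3; 95% interval 0.30 to 1.16, adjusted p = 0.0641). CDC25B passed with normexp background correction (adjusted p = 0.0413) and when only probes well above background on all 6 arrays were tested (adjusted p = 0.0480). It did not pass without the filter on dim probes (adjusted p = 0.239), without the line as a block (adjusted p = 1.0), or with a line left out (adjusted p from 0.121 to 0.199). Its mean stayed between 0.61 and 0.87 under all alternatives tried.

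CDC25A, which also serves the start of S phase, was measured on chromosome 3 from 48199124 to 48199183. Its siCtrl levels were 0.74 (HSC-3), 2.36 (KON), and 1.80 (Ca9-22), and its siDLEU1-2 levels were 0.85, 3.45, and 2.03. It was higher by 2.13-fold in KON, and by 1.08-fold in HSC-3 and 1.17-fold in Ca9-22. The mean of 0.47 ± 0.54 did not pass (95% interval -0.16 to 1.11, adjusted p = 0.270).

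CDC25C was measured on chromosome 5 from 137621240 to 137621299. Its levels after siCtrl were 0.39 (HSC-3), 0.74 (KON), and 0.056 (Ca9-22), and after siDLEU1-2 they were -0.78, 0.84, and -0.29. The siDLEU1-2 array of HSC-3 was the lowest of the 6, at 2.25-fold below its control. In Ca9-22 the log2 fold change was -0.34, and in KON it was 0.11, which became -0.011 with arrays centered on the median. The mean of -0.47 ± 0.65 did not pass (95% interval -1.20 to 0.26, adjusted p = 0.331).

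CDK1, the kinase on which the others act, had a mean change near 0, with opposite directions between lines. The kept probe has 10 spots per array, and its coordinates on chromosome 10, from 62552004 to 62553650, cover 1647 bases for 60 bases of probe, so it crosses an exon junction of the transcript NM_001786. Its level was 3.31 (HSC-3), 4.29 (KON), and 4.05 (Ca9-22) after siCtrl. After siDLEU1-2 it was 2.94, 4.92, and 3.93. The log2 fold change was -0.37 (HSC-3), 0.63 (KON), and -0.12 (Ca9-22), and its spots on 1 array had an SD of 0.025 to 0.057, an error within the array alone. The mean was 0.049 ± 0.52 (SD, n = 3; 95% interval -0.57 to 0.67, adjusted p = 0.916). An average change of up to 0.67 upward or 0.57 downward is thus within the interval. A second CDK1 probe, on chromosome 10 from 62546632 to 62546691 and assigned to the transcript variant NM_001170406, was not well above background on any array and was not tested. Its processed signal was 3.59 to 19, where the 75th percentile of the arrays was 200 to 257.

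The cyclin partners of CDK1 had the same signs as CDK1 in each line. CCNB1 encodes cyclin B1, the main partner in mitosis, and its probe of 10 spots spans chromosome 5 from 68471363 to 68473123. Its levels after siCtrl were 4.72 (HSC-3), 5.22 (KON), and 4.71 (Ca9-22), and after siDLEU1-2 they were 4.20, 5.49, and 4.20. By this probe cyclin B1 RNA was thus 1.43-fold lower in HSC-3 and in Ca9-22 and 1.21-fold higher in KON. Among 8 or 9 usable spots the SD was 0.020 to 0.031, an error within the array alone. The mean log2 fold change of -0.25 ± 0.45 did not pass (adjusted p = 0.487).

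The second CCNB1 probe has 1 spot and lies downstream on the same strand, from 68473872 to 68473931. Its levels were 2.55, 2.18, and 3.05 after siCtrl and 1.39, 2.51, and 2.67 after siDLEU1-2, in HSC-3, KON, and Ca9-22. Both probes were lower in HSC-3, higher in KON, and lower in Ca9-22, but the second was lower in HSC-3 by more, at 2.23-fold. Its mean of -0.40 ± 0.74 did not pass (adjusted p = 0.440). The probes also disagreed on the order of the lines, since KON was the highest siCtrl array for the first probe and the lowest for the second.

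CCNB2 encodes cyclin B2, and its probe lies on chromosome 15 from 59417139 to 59417198. Levels were 4.73, 5.63, and 5.52 after siCtrl and 4.18, 6.03, and 5.01 after siDLEU1-2, in the same order of lines. The log2 fold change was -0.55 (HSC-3), 0.40 (KON), and -0.51 (Ca9-22), with a mean of -0.22 ± 0.54 (adjusted p = 0.595).

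CCNA2 encodes cyclin A2, which works in S phase and G2, and its 10-spot probe lies on chromosome 4 from 122739995 to 122740054. Levels were 1.61, 2.68, and 1.82 after siCtrl and 0.98, 2.84, and 1.57 after siDLEU1-2. The log2 fold change was -0.63 (HSC-3), 0.16 (KON), and -0.25 (Ca9-22). The difference in KON was the smallest of the 3, and the spots of 1 array had an SD of 0.074 to 0.11. The mean of -0.24 ± 0.40 did not pass (adjusted p = 0.469).

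CHEK1 was measured on chromosome 11 from 125525158 to 125525217. Its levels were 0.91, 1.38, and 1.20 after siCtrl and 0.69, 2.15, and 1.49 after siDLEU1-2. It was 1.71-fold higher in KON and 1.22-fold higher in Ca9-22, and 1.16-fold lower in HSC-3. The mean of 0.28 ± 0.49 did not pass (adjusted p = 0.467).

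**Figure D2:**
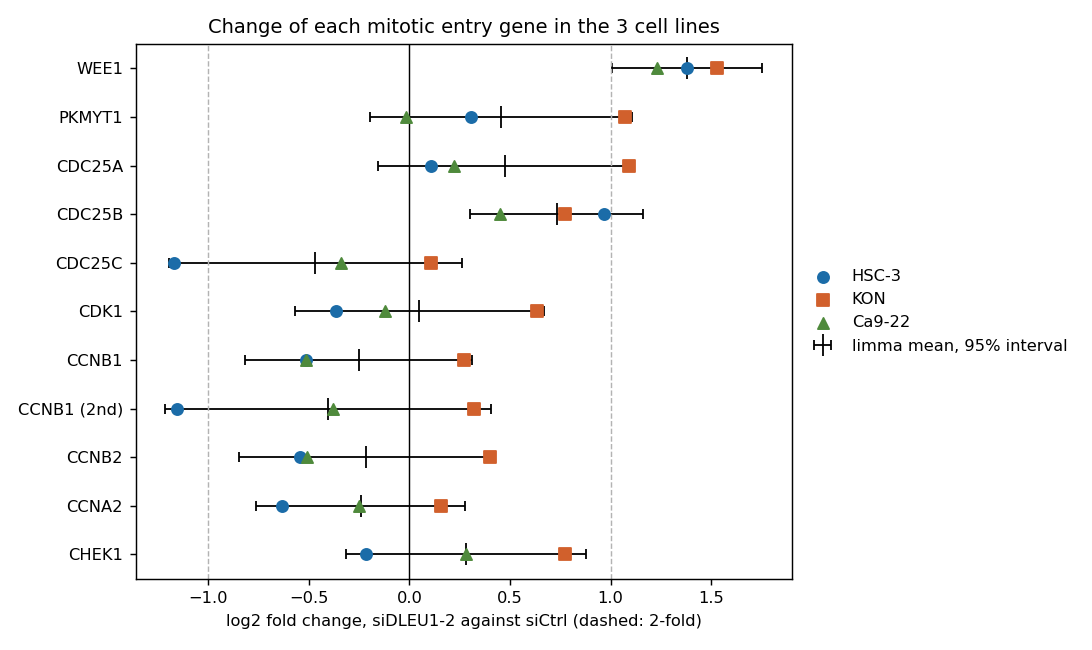
Log2 fold change (x axis, siDLEU1-2 against siCtrl) of the 11 kept probes in HSC-3 (circles), KON (squares), and Ca9-22 (triangles), with the limma mean over 3 lines and its 95% interval. WEE1 lies beyond 2-fold (dashed) in each line, CDC25B lies right of 0 in each line at 0.45 to 0.97, and the intervals of the other 9 probes include 0.

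No probe of the group was called lower, against 902 of all kept probes (4.52%). At an unadjusted p below 0.05 limma counted 2 probes higher, WEE1 and CDC25B, and 0 lower, where 29.5% of all kept probes were below it in either direction. The methods' t-test, run on the same values, gave 1 higher and 0 lower at its threshold (6.88% of all kept probes in either direction) and 0 after Benjamini-Hochberg adjustment, when it called 0 of all kept probes.

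The lines differed in the direction of the group. In KON all 11 probes were higher after siDLEU1-2, from 0.11 to 1.53, with a median log2 fold change of 0.63, where the median of all kept probes was 0.019. In HSC-3 4 probes were higher and 7 lower, with a median of -0.37 (all kept probes, -0.0016), and in Ca9-22 the same numbers gave a median of -0.12 (all kept probes, -0.0083). Of the 11 probes, 6 were higher in KON and lower in both HSC-3 and Ca9-22, namely those of CDK1, CCNB1 (both), CCNB2, CCNA2, and CDC25C. This pattern was singled out after the values were seen, and 9.26% of all kept probes had it. Changes over 2-fold within a line were found for 3 of the 11 in HSC-3 (14.2% of all kept probes), 3 in KON (14.6%), and 1 in Ca9-22 (13.0%). The difference between lines has no test, since each line has 1 array per siRNA. No direction within a line turned under the other scalings or background correction, apart from CDC25C in KON.

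General proliferation genes were higher in KON and lower in the other lines by their medians. The reference list for proliferation holds 31 genes, 30 of which were measured by 40 kept probes. Its median log2 fold change was -0.48 (HSC-3), 0.39 (KON), and -0.31 (Ca9-22), and 17 of the 40 probes (42.5%) were higher in KON and lower in the other lines. Its part in the changes of CDK1 and the cyclins was not tested.

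The level of the group also differed between lines, and here the 2 arrays of a line served together in the same limma fit. A difference is thus a mean over both siRNAs and includes any change after siDLEU1-2 that is particular to a line. For CDK1 the levels in HSC-3 and KON were 3.31 and 4.29 after siCtrl, and 2.94 and 4.92 after siDLEU1-2. KON stood above HSC-3 for most of the group. KON and HSC-3 differed for 7 of the 11 probes, where 36.2% of all kept probes differed, and 6 of the 7 were higher in KON. The difference in log2 level was 2.10 for CDC25A (adjusted p = 0.0110), 1.53 for PKMYT1 (adjusted p = 0.0221), 1.48 for CDK1 (adjusted p = 0.0213), 1.47 for CCNA2 (adjusted p = 0.0154), 1.38 for CCNB2 (adjusted p = 0.0263), and 0.81 for WEE1 (adjusted p = 0.0264). Neither CCNB1 probe, CDC25C, nor CHEK1 passed in this contrast, with differences of 0.37 to 0.99.

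CDC25B was the 1 kept probe of the group with a lower mean level over both siRNAs in KON than in HSC-3. On the siCtrl arrays alone the second CCNB1 probe was also lower in KON, at 2.18 against 2.55. CDC25B was highest in HSC-3, lower in KON by a log2 difference of -0.88 (adjusted p = 0.0301), and lower again in Ca9-22, by -2.23 from KON (adjusted p = 0.00726) and by -3.11 from HSC-3 (adjusted p = 0.00489). For CDC25B the order HSC-3, KON, Ca9-22 held within siCtrl and within siDLEU1-2.

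Ca9-22 and HSC-3 differed for 3 of the 11 probes (36.6% of all kept probes), with PKMYT1 higher in Ca9-22 by 1.24 (adjusted p = 0.0365) and CDC25A by 1.12 (adjusted p = 0.0432), besides CDC25B. Ca9-22 and KON differed for 3 (33.2% of all kept probes), with WEE1 lower in Ca9-22 by a log2 difference of -0.97 (adjusted p = 0.0189) and CCNA2 by -1.06 (adjusted p = 0.0324), besides CDC25B. For WEE1, HSC-3 and Ca9-22 were neighbors that did not differ beyond their spread (difference -0.16, 95% interval -0.61 to 0.30). The same held for PKMYT1 between KON and Ca9-22 (-0.30, 95% interval -1.09 to 0.50). These shares are at or below those of all kept probes except for KON against HSC-3, and the fit assumes that the siRNA shifts each line alike, which the log2 fold changes of KON do not follow for most of the group.

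**Figure D3:**
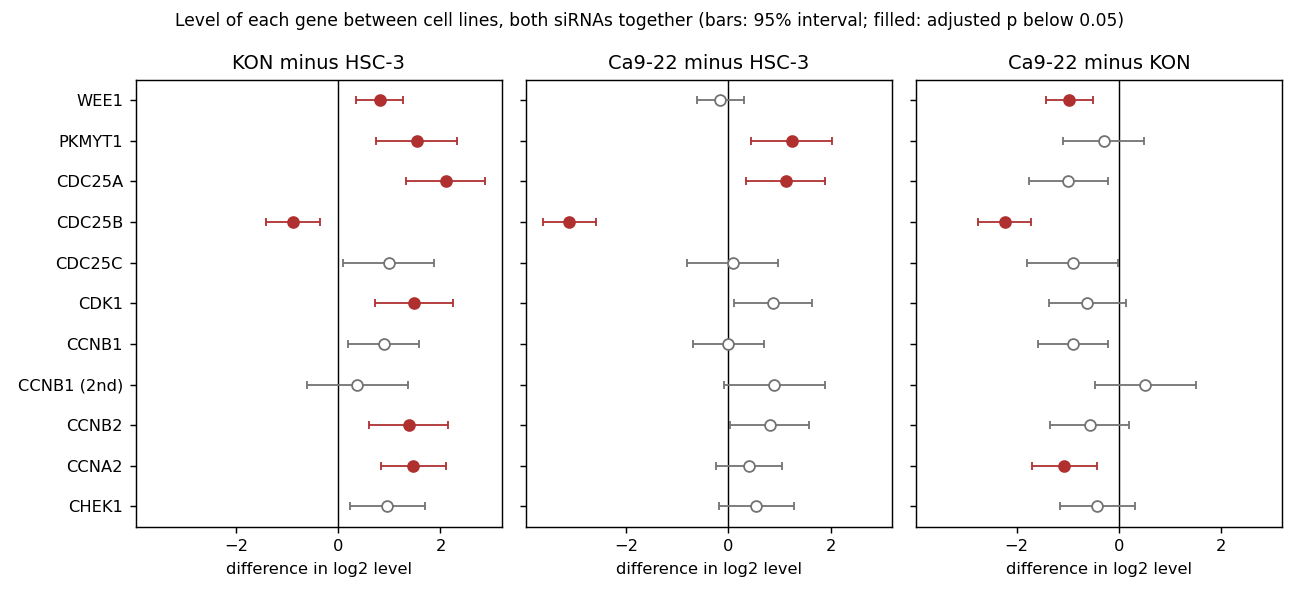
Differences in log2 level between cell lines for the 11 kept probes, 1 panel per pair of lines, with 95% intervals and filled points where the adjusted p is below 0.05. Most of the group lies above 0 for KON against HSC-3, and CDC25B is the 1 probe whose interval lies below 0 in all panels, down to -3.11.

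The wider pathway was described with 6 lists, which hold none of the 10 mitotic entry genes, while SFN is in the checkpoint list and among the epithelial markers. Of their 208 kept probes, 6 rose and 14 fell in limma, and 8.50% of all kept probes were called in either direction. All 20 calls were lost without the line as a block, without the filter, and without HSC-3 or KON, and 1 was left without Ca9-22, so each rise or fall below rests on these choices. In G2 checkpoint signaling, 1 of 30 probes rose and 3 fell. GADD45B, a stress-induced protein of the family that can inhibit CDK1 with cyclin B1, rose by 1.82 ± 0.22 (SD, n = 3 lines; adjusted p = 0.0231). ATM, the kinase of the response to DNA breaks, had a mean of -1.14 ± 0.13 and was called lower (adjusted p = 0.0274), although its other kept probe had one of -0.082 (adjusted p = 0.822). ATRIP, the partner of the checkpoint kinase ATR, fell by 0.87 on the log2 scale, while its other probe had a mean of -0.62 and was not called (adjusted p = 0.144). SFN, a 14-3-3 protein that retains CDK1 complexes in the cytoplasm, fell by 0.81 (adjusted p = 0.0470).

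Among other kinases and phosphatases of mitotic entry, 1 of 35 probes rose and 2 fell. CDK2, which partners cyclins E and A, had log2 fold changes of -1.94 to -1.68 in the lines (mean -1.78 ± 0.14, adjusted p = 0.0227). CCNH, the cyclin of the kinase that activates CDK1 and CDK2, fell by 0.98 (adjusted p = 0.0350). CDC14B, a phosphatase of mitotic exit, rose by 1.05 (adjusted p = 0.0381), and its other probe had a mean of 0.90 that was not called (adjusted p = 0.0580). In this list 11 of 35 probes (31.4%) had the pattern of CDK1, higher in KON and lower in the other lines, where 9.26% of all kept probes had it. The shares in the lists for the checkpoint, for WEE1 and CDC25 regulators, for the anaphase-promoting complex, and for transcriptional regulators were 10%, 11.1%, 12.5%, and 17.1%.

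Of 36 probes for regulators of the WEE1 and CDC25 proteins, 2 rose and 1 fell. PIM1, a kinase that can phosphorylate CDC25A, was higher by 1.09 to 1.22 in each line (mean 1.14 ± 0.071, adjusted p = 0.0257). MAPKAPK2, a stress kinase that can phosphorylate CDC25 proteins, rose by 0.91 (adjusted p = 0.0385). FBXW7, the substrate receptor of a ubiquitin ligase, fell by 1.05 (adjusted p = 0.0331). Of 32 probes for the anaphase-promoting complex, which destroys the mitotic cyclins, ANAPC4 was the 1 that fell (mean -0.80, adjusted p = 0.0484), and 0 rose.

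Of 35 probes for transcriptional regulators of G2/M genes, 2 rose and 4 fell. E2F7, a repressor of the E2F family, has 2 of these 4 probes. The one well above background on all 6 arrays had log2 fold changes of -2.29, -1.78, and -2.53 in HSC-3, KON, and Ca9-22 (mean -2.20 ± 0.38, adjusted p = 0.0247). The other was dim, not well above background, on each siDLEU1-2 array and passed the filter through its siCtrl arrays alone, so its call adds no support. It was at least 2.33-fold lower, the siCtrl mean being set against a mean that takes, for each dim array, its own value or the detection floor (the lowest signal well above background), whichever is higher. LIN52 and RBL2, subunits of the DREAM complex that represses cell cycle genes in resting cells, fell by 1.36 and 1.05. NFYB, a subunit of the factor that binds CCAAT, rose by 1.10 (adjusted p = 0.0278), and E2F3, an activator, rose by 0.90 (adjusted p = 0.0393). Its other probe had a mean of 0.67 and was not called (adjusted p = 0.119). Of the 40 proliferation probes 0 rose and 3 fell, both probes of the helicase subunit MCM7 (means -1.10 and -1.20) and that of CENPE, a kinesin of the kinetochore (-1.14, adjusted p = 0.0416).

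**Figure D4:**
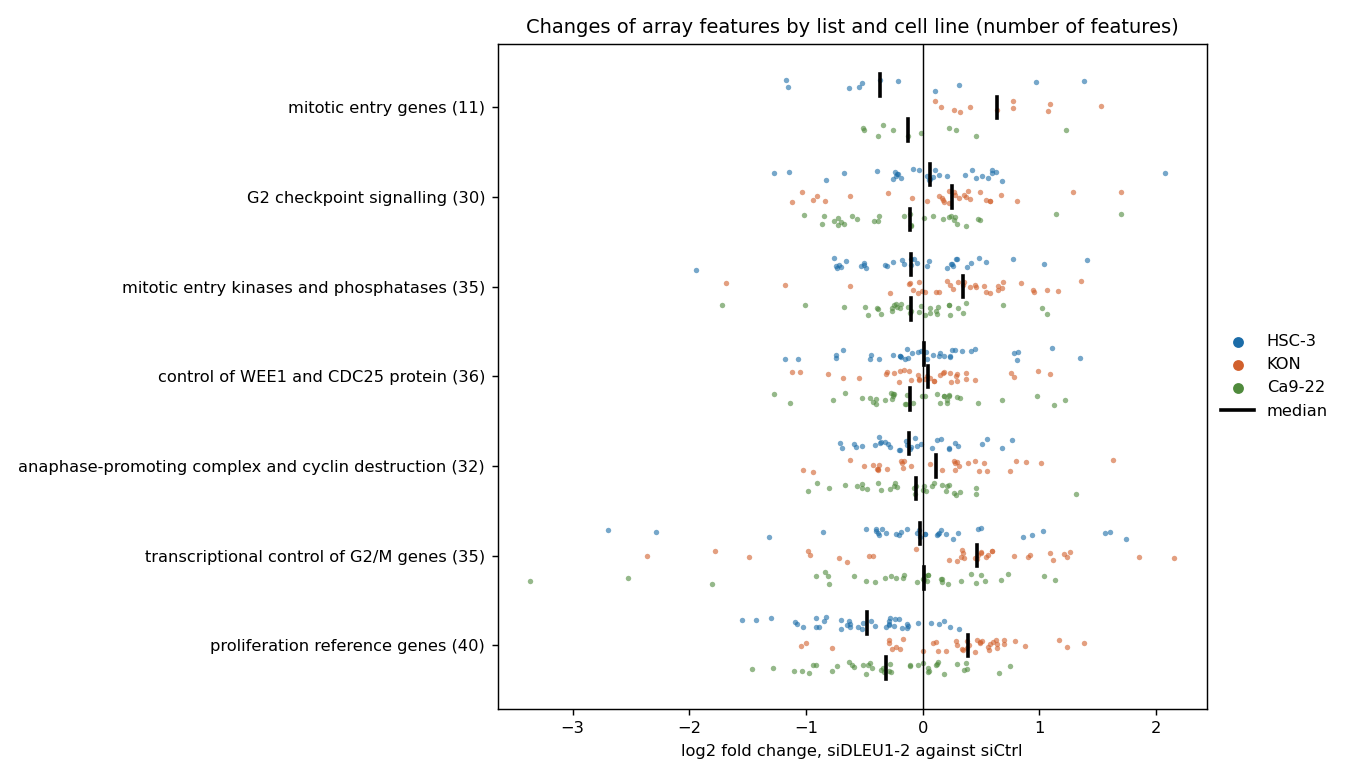
Log2 fold change of each kept probe (points) in each cell line for the mitotic entry genes and 6 lists of related genes, with medians as bars and the number of probes in parentheses. The medians of KON lie right of those of the other lines in each list, most widely for the mitotic entry genes (0.63 against -0.37 and -0.12) and the proliferation genes (0.39 against -0.48 and -0.31).

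The probes closest to WEE1 in pattern were found by the root mean square difference between the 6 log2 levels, each probe centered on its own mean, over 15357 other probes with a RefSeq symbol and signal well above background on every array. The nearest were XPOT (0.15), which exports tRNA from the nucleus, PIM1 (0.15), ARMC10 (0.18), DDRGK1 (0.19), and C7orf23 (0.20). Each was higher after siDLEU1-2 in every line, by 0.89 to 1.60, and each was called by limma, as a choice by likeness to WEE1 makes likely, so neither supports the change of WEE1. Nearest to CDK1 were C19orf48 (0.11), CKS2 (0.11), which binds CDK1 directly, SMC4 (0.11), a subunit of condensin, PCGF6 (0.12), and UHRF1 (0.12). All 5 were higher in KON, by 0.37 to 0.69, and lower in HSC-3, and PCGF6 and UHRF1 were not lower in Ca9-22. None of the 5 was called (adjusted p from 0.636 to 0.852), and these values follow from the choice in the same way.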

How the data were processed

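The authors deposited scanner files of Agilent Feature Extraction 10.7.3.1 that give an intensity per spot. Its background-subtracted form, the processed signal, was used, which the authors had not normalized between arrays. The series table holds the authors' intensity of the same arrays and served as an alternative. Spots marked as outliers and control spots were left out, spots of a probe were averaged, and the 75th percentile of each array was subtracted from the log2 values. Of 50599 probes, 55 lacked a usable spot on some array. The 19956 probes kept were well above background (at least 50% of spots) on 1 or both arrays of every line. A linear model with terms for siRNA and cell line was fitted in limma 3.58.1 (lmFit, eBayes; R 4.3.3), p-values were adjusted by Benjamini-Hochberg across all kept probes, and the threshold was 0.05. Pairs share a cell line, and deviations from the siRNA means correlated at 0.83, 0.81, and 0.82 within the pairs of HSC-3, KON, and Ca9-22.

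Nothing states that arrays of 1 siRNA stem from more than 1 culture per line, so p-values for the siRNA measure the spread of its change between lines. In the contrasts between lines, each line is 2 arrays of different siRNA. Their p-values measure the spread left after line and siRNA, and not the spread between cultures of a line. The number of arrays limits precision. On simulated arrays for this comparison (19956 probes), limma called 172 of 200 probes changed by 1.5 on the log2 scale alike in every line, and 12 unchanged ones. Smaller changes, and changes that differ between lines, as for most of these genes, were not simulated. The genes and lists were chosen with earlier results of these data known. Every probe of the 10 genes is named, and from the pathway and marker lists the genes with a probe called by limma or over 2-fold one way in all 3 lines. The alternatives were other scalings, normexp background correction (offset 50), other filters and fold thresholds, the mean of the probes of a gene, the methods' t-test, no block, and each line left out. The slide was not a block, since there is 1. Coordinates are those of the files (hg19), and promoters those of RefSeq (GRCh38.p14). Of 34423 gene names, 20446 were found among the gene names of RefSeq, including all 10 here, while the promoter set held windows for 8 of them.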

Additional observations from a re-analysis of the deposited data

Results flagged for a closer look

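Of the 11 kept probes, 8 had changes of opposite sign between cell lines, each line being 1 pair of arrays, and the difference between lines was not tested. The share of all kept probes with opposite signs was not counted, so this number does not set the group apart. Between the highest and the lowest line, the log2 fold change spanned 1.48 for the second CCNB1 probe, 1.28 for CDC25C, 1.09 for PKMYT1, 1.0 for CDK1, 0.99 for CHEK1, 0.95 for CCNB2, 0.79 for CCNA2, and 0.79 for the first CCNB1 probe. KON was the highest line for all 8. The lowest was HSC-3 for all but PKMYT1, whose lowest value, -0.017 in Ca9-22, lies next to 0. Only WEE1, CDC25A, and CDC25B had 1 sign in all of the lines.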

How the results depend on the processing

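The count of probes over 2-fold in all 3 lines was 1 (WEE1) under all alternatives tried except a 3-fold threshold, which gave 0. The count called higher was 1 in the main analysis. It was 2 with normexp background correction and with probes well above background on all 6 arrays, where CDC25B joined WEE1 and the calls over all probes went from 795 higher and 902 lower to 1131 and 1177, and to 991 and 1074 of 18094. It was 0 without the cell line as a block, without a filter on dim probes, with the methods' t-test after adjustment, and with any 1 line left out (lowest and highest, 0), and no probe was called lower under any alternative. Of the 208 pathway probes 20 were called, against 0 without a block or filter and 0 to 1 with a line left out. Over all probes limma called 0 with no filter (50544 tested, 6816 with an unadjusted p below 0.05), 0 without the block (1357), 0 without HSC-3 (4547), 0 without KON (4676), and 127 higher and 117 lower without Ca9-22, and the adjusted t-test called 0, so these losses are not particular to the group. The number that differed between lines was 7, with 7 to 9 under the other scalings, corrections, and filters, 3 in the absence of a filter, and 3 to 6 with a line left out, which leaves fewer pairs of lines. The median of the group, 0.049, was -0.24 to 0.26 with a line left out. CDK1 changed sign, with a mean of -0.031 under quantile normalization, -0.023 with median centering, and -0.24 without KON, and was not called in any of these. Of 142 values of single probes under the alternatives, 132 kept their sign and side of the threshold, 3 reversed (CDK1), 5 lost the call (WEE1), and 2 gained it (CDC25B). Part of this agreement was fixed in advance, because other filters and the lack of a block leave a log2 fold change as it is. The series table holds the same signal, rounded. A kept sign is also not a kept size. Without HSC-3 the mean of the second CCNB1 probe went from -0.40 to -0.029, and without KON that of CHEK1 went from 0.28 to 0.034. The cause of these shifts was not tested. Pairing by replicate number is pairing by cell line here.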

Other observations

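A constant shift of an array cancels when the log2 fold change of 1 gene is set against that of another on the same arrays. These differences were chosen after the values were seen. The log2 fold change of WEE1 exceeded that of CDK1 by 1.75 (HSC-3), 0.89 (KON), and 1.35 (Ca9-22) (mean 1.33 ± 0.43, SD, n = 3 lines). Against CDC25C the differences were 2.55, 1.42, and 1.57, and against PKMYT1, its relative, they were 1.07, 0.45, and 1.25. That of CDC25B exceeded that of CDC25C by 2.14, 0.67, and 0.79. All 4 differences had 1 sign in 3 of 3 lines, and with 3 lines, the smallest two-sided p of an exact sign-flip test is 0.25.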
